A study of Mus musculus with 33 samples.

Results

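ΔK9.2 is a clone of mouse embryonic stem (ES) cells that lacks, on both alleles, a stretch of DNA between the *Nanog* promoter and its upstream enhancer, and the data described here are its transcriptome before and after 8 days of differentiation as embryoid bodies (EBs). The samples were chosen by label only: the 3 libraries of ΔK9.2 at day 0 and its 3 libraries at day 8, which are 6 of the 33 libraries of the series. The other libraries come from E14Tg2a, the wild-type line, from ΔK9.1, a second clone with the same kind of deletion, and from days 4 and 6. The question was how far the clone moved from its undifferentiated state, gene by gene, and whether the size of that net change differed from that of E14Tg2a or ΔK9.1.

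All 3 lines derive from E14Tg2a ES cells of strain 129/Ola. The study describes ΔK9.1 and ΔK9.2 as karyotypically normal. Each deleted line is 1 clone, so what the deletion does and what is peculiar to the clone cannot be told apart within ΔK9.2. At day 0 the cells were undifferentiated and grew on gelatine in serum medium with LIF, the cytokine that holds mouse ES cells undifferentiated. For the later days, cell aggregates were placed in the same serum medium without LIF, first in suspension and then replated on gelatine. No compound or inducing factor was added. Each line has 3 replicates per day except day 6, which has replicates 2 and 3 only.

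*Nanog* encodes a homeodomain transcription factor of the ES cell network, where it acts with OCT4 (*Pou5f1*), SOX2 and ESRRB to hold cells in the naive state and lowers their tendency to differentiate. When LIF is withdrawn, cells in EBs leave this state through a formative, epiblast-like stage. They then form derivatives that resemble the primitive streak, mesoderm, endoderm and ectoderm of the early embryo, while the *Hox* clusters open in order from their 3′ to their 5′ ends.

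Expression was read as TPM (transcript abundance scaled to a fixed total in each library) and compared as log2(TPM + 1) with limma. A gene was called when its Benjamini-Hochberg adjusted p was under 0.05 and its log2 change exceeded 1 in either direction. In bulk libraries, fewer cells of a type and less RNA per cell cannot be told apart. The listed TPM summed to between 994284 and 995488 per library on day 0 and between 996975 and 997532 on day 8, and the read depth behind them cannot be recovered from TPM. Replicates correlated with a Pearson r of 0.980 to 0.987 on day 0 and 0.966 to 0.976 on day 8, and the median SD of a gene's log2 values rose from 0.162 to 0.206. The library of day 0 replicate 1 stands apart in endoderm transcripts, with *Gata6* (an endoderm regulator) at 7.44 TPM against 0.297 and 0.523 in the other two, and its values, or the result without it, stand beside each named gene whose call and each list whose count (by over 1.5 times) changed when it was left out. The label of undifferentiated ES cells held for all 3 day 0 libraries, in which 5 defining markers (*Nanog*, *Pou5f1*, *Sox2*, *Zfp42*, *Esrrb*) summed to 3419, 3482 and 3574 TPM, against 968, 394 and 597 TPM on day 8.

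Between day 0 and day 8, 1770 of 15056 tested genes were higher in ΔK9.2 (11.8% of those tested) and 1824 were lower (12.1%). The 3 day 8 libraries lay wholly above or below the 3 day 0 libraries for 59.2% of all genes tested and for 3563 of the 3594 called genes. The median change over all genes was -0.04 on the log2 scale. Changes above log2 4 were found for 72 genes in the upward and 43 genes in the downward direction, and changes above log2 5 for 23 and 9 genes. *Hand1*, *Igf2*, *Msx1*, *Fgf8*, *Cdx2* and *Cyp26a1* lead the rises among genes of known function, and *Mymx*, *Halr1*, *Khdc3*, *Rpl10l* and *Nr0b1* lead the falls.

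*Nanog* (chr6:122707489-122714633 of mm10, plus strand) is the gene beside the deletion. It stood at 412, 439 and 426 TPM in the 3 day 0 libraries and at 118, 69.9 and 126 TPM in the 3 day 8 libraries. The groups did not overlap, and the day 8 level was 24.6% of the day 0 mean. The log2 change was -2.06 (SE 0.20, adjusted p = 0.000128 from limma), a 4.16-fold fall on the TPM + 1 scale. The fall was gradual, with means of 211 TPM on day 4 and 175 TPM on day 6. The 300 bases around its start site are printed as the promoter of the gene whose upstream region was deleted. The capitals mark TTTGCAT, the reverse of ATGCAAA, 7 bases of the element that POU factors such as OCT4 bind, which begins 75 bases before the start site, and ACAATG, a SOX motif, which begins 67 bases before it. Of 32817 promoter windows of this length in the RefSeq annotation of GRCm38.p6, 4.63% hold ATGCAAA and 12.6% hold ACAATG on either strand.

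*Nanog*, chr6:122707239-122707538, plus strand: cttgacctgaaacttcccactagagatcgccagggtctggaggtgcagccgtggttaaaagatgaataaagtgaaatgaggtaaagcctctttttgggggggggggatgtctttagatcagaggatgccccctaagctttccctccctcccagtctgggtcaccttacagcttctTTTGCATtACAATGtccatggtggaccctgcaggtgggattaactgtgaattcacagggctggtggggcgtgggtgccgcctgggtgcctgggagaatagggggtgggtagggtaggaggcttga

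The rest of the naive network fell with *Nanog*, most members by more. Of 30 tested genes of core and naive pluripotency, 25 were lower and 1 was higher, with a median log2 change of -3.26. *Zfp42* (REX1, a zinc finger marker of the naive state) went from 658, 700.0 and 666 TPM to 12.9, 21.4 and 34.2 TPM, a 30.4-fold fall (log2 change -4.93, SE 0.29, adjusted p = 1.13e-05). *Esrrb*, an orphan nuclear receptor of the network, went from 317, 312 and 272 TPM to 5.56, 11.4 and 13.5 TPM (log2 change -4.83, SE 0.27). In both genes every day 8 library was far below every day 0 library.

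*Nr0b1* (DAX1, a nuclear receptor that partners OCT4) fell by 5.24 on the log2 scale and *Tcl1*, a co-activator of AKT kinase, by 4.86. *Pou5f1* and *Sox2*, which are shared by naive and formative cells, fell less. *Pou5f1* went from 1674, 1652 and 1865 TPM to 789, 256 and 325 TPM (log2 change -2.10, SE 0.36, adjusted p = 0.00194), and its mean was still 1520 TPM on day 6. Its day 8 libraries were uneven, with replicate 1 at more than the sum of the other two. *Sox2* went from 358, 379 and 345 TPM to 41.8, 35.6 and 98.0 TPM (log2 change -2.75, SE 0.33). The member that rose was *Lin28a*, an RNA-binding blocker of let-7 maturation, by 1.38. *Sall4*, a zinc finger factor, had 58.7, 67.5 and 69.1 TPM on day 0 and 72.6, 65.3 and 48.3 TPM on day 8, and was not called. *Tbx3* (64.1, 43.4 and 32.1 TPM, then 31.4, 28.3 and 13.6 TPM) was not called either (adjusted p = 0.0509), and was lower by log2 1.15 (adjusted p = 0.0323) without day 8 replicate 1 and by log2 1.16 (adjusted p = 0.0443) without day 0 replicate 3.

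The deepest falls among genes of known function were for the most part not those of the network's regulators. *Mymx*, known as a small membrane peptide of muscle cell fusion, went from 169, 122 and 149 TPM to 0.563, 4.11 and 2.40 TPM (log2 change -5.61, SE 0.38, adjusted p = 2.22e-05). *Halr1*, a long non-coding RNA next to the *Hoxa* cluster, fell by 5.57, *Khdc3*, a maternal effect gene of the oocyte, by 5.39, and the keratin gene *Krt42* by 5.24. *Rpl10l*, a retrocopy of a ribosomal protein gene whose reads may be split with its parent, fell by 5.31. *Inhbb*, which encodes a subunit of activin B, went from 45.7, 40.4 and 25.6 TPM to 0.0108, 0.0650 and 0.0112 TPM (log2 change -5.18, SE 0.23). *Hsd17b14*, a steroid dehydrogenase, and *Spp1* (osteopontin, a secreted phosphoprotein) fell by 4.83 and 4.73. These genes were picked under the condition that their day 0 and day 8 libraries do not overlap. The lack of overlap in the plot of single libraries was therefore set by that choice.

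**Figure D1:**
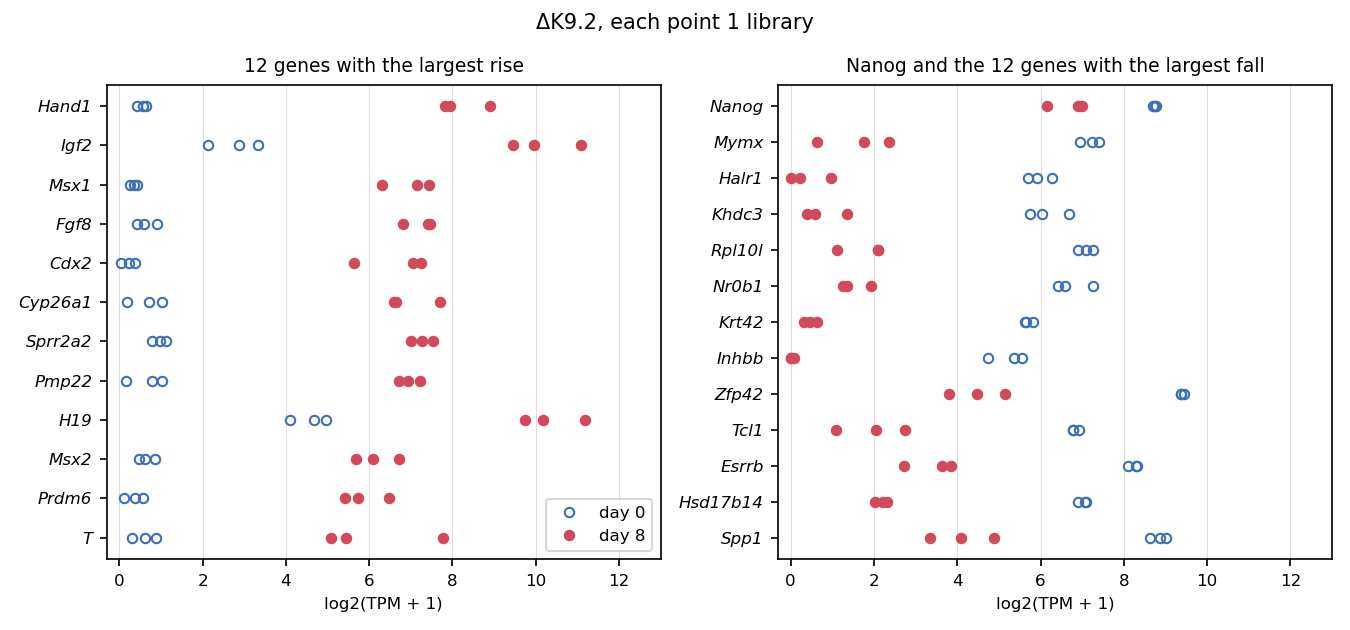
Values of log2(TPM + 1) on the horizontal axis for the 12 genes that rose most (left) and for *Nanog* and the 12 genes that fell most (right) in ΔK9.2, with 1 point per library, open blue for day 0 and filled red for day 8. The genes other than *Nanog* were picked for the largest changes without overlap between the days. *Nanog* (-2.06) was added whatever its change, and its points do not overlap either. *T* has 1 day 8 library (replicate 1, 218 TPM) well to the right of the other two.

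The genes of the formative and primed epiblast, the stage after the naive state, were split. Of 19 tested, 8 were higher and 7 lower, with a median of 0.65 against -0.04 over all genes. *Sox11*, an HMG-box factor of progenitor cells, rose from 2.20, 1.81 and 2.16 TPM to 23.3, 26.2 and 24.6 TPM (log2 change 3.07, SE 0.15), and *Lef1*, a transcription factor of the Wnt pathway, rose by 3.00. *Foxd3*, a forkhead repressor, fell from 21.0, 16.7 and 21.5 TPM to 5.43, 0.444 and 1.14 TPM (log2 change -2.93, SE 0.48, adjusted p = 0.00166).

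Several members passed through a peak that the comparison of days 0 and 8 does not show. *Dnmt3b*, the de novo DNA methyltransferase of the epiblast, had 64.5, 47.8 and 59.6 TPM on day 0, means of 335 TPM on day 4 and 502 TPM on day 6, and 190.3, 55.4 and 69.3 TPM on day 8, and was not called (adjusted p = 0.209). *Fgf5*, the usual marker of epiblast cells, had a mean of 58.0 TPM on day 6 and 19.1, 1.58 and 19.9 TPM on day 8 (log2 change 2.67, SE 0.75, adjusted p = 0.0184). Day 8 replicate 2 was the low library for both. Over all called genes, those that fell had covered a median of 44.1% of their log2 change by day 4 and 85.7% by day 6, and those that rose 16.8% and 61.8%. Of the called genes, 252 that were higher and 474 that were lower on day 8 lay further from day 0 on day 6 than on day 8.

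**Figure D2:**
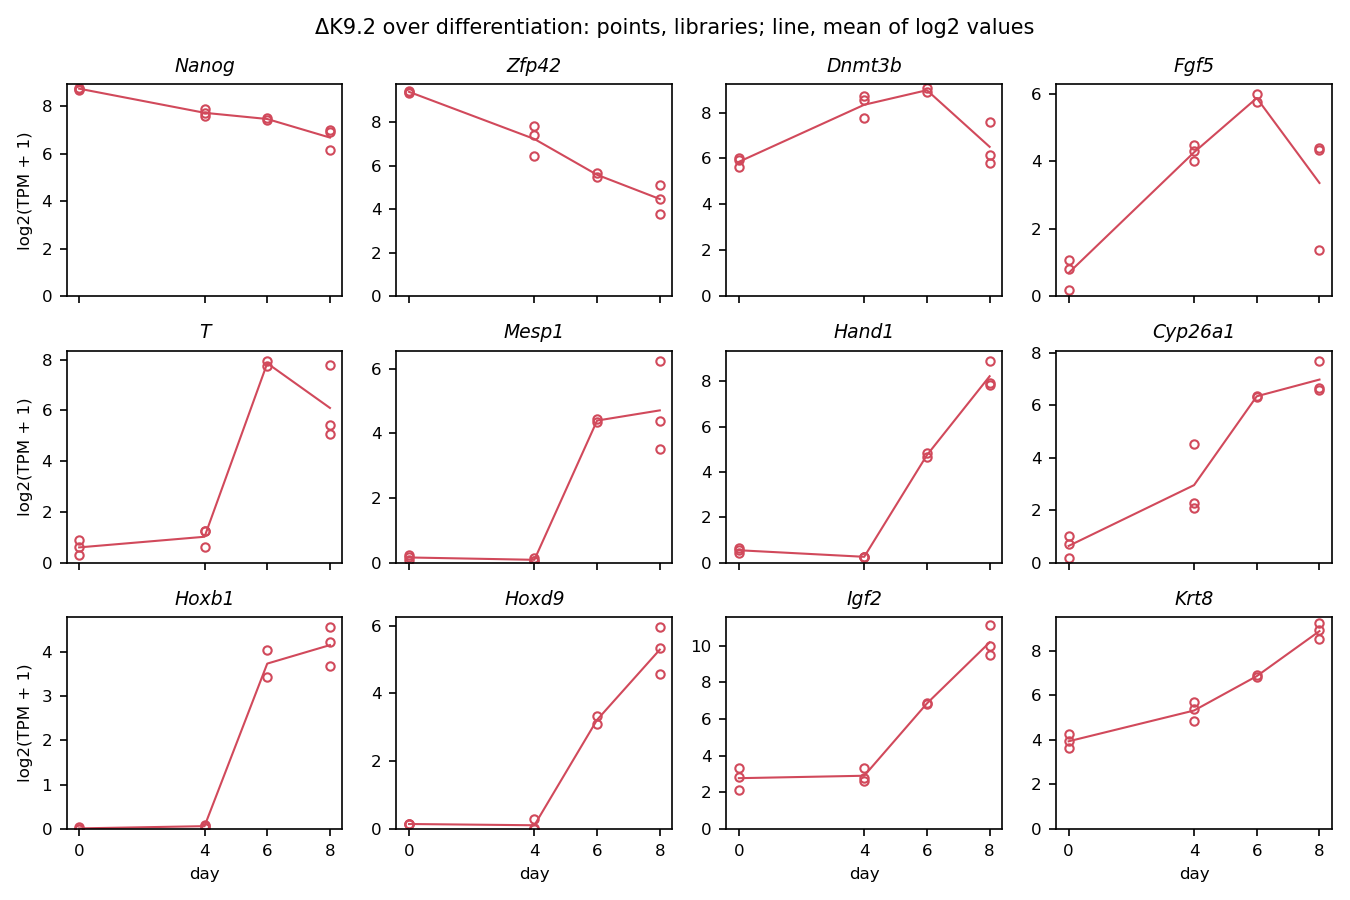
Values of log2(TPM + 1) on the vertical axis against day of differentiation for 12 genes of ΔK9.2, with 1 point per library and a line through the mean of the log2 values (3 libraries per day, 2 on day 6). *Nanog* and *Zfp42* fall from the first interval, *Dnmt3b*, *Fgf5* and *T* are highest on day 6, and *Mesp1*, *Hand1*, *Hoxb1*, *Hoxd9* and *Igf2* stay flat to day 4 and rise after it.

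Genes of the primitive streak and early mesoderm rose almost as a block. Of 23 tested, 21 were higher and 0 lower, the median log2 change was 3.37, and the median called member had covered 93.1% of its change by day 6. *Hand1*, a bHLH factor of lateral and extra-embryonic mesoderm and of trophoblast, went from 0.558, 0.352 and 0.491 TPM to 243, 479 and 226 TPM, the largest rise of the named genes at 204-fold (log2 change 7.67, SE 0.27, adjusted p = 2.95e-06). *Fgf8*, the FGF ligand of the streak, went from 0.350, 0.516 and 0.883 TPM to 176, 112 and 170.1 TPM (log2 change 6.59, SE 0.21, adjusted p = 2.33e-06). Neither gene's groups came near each other.

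*T* (Brachyury; chr17:8434423-8442496 of mm10, plus strand), the T-box factor that defines the streak, went from 0.241, 0.538 and 0.840 TPM to 218, 42.2 and 32.9 TPM (log2 change 5.49, SE 0.62, adjusted p = 0.000245). Its mean on day 6 was 232 TPM, so on day 8 replicate 1 was near the day 6 mean and the other two were below it. *Mesp1*, a bHLH factor of cells leaving the streak, showed the same order, with 74.9, 20.0 and 10.4 TPM on day 8 against at most 0.174 TPM on day 0. *Kdr*, the VEGF receptor of blood and vessel precursors, reached 30.2, 29.1 and 9.25 TPM (log2 change 3.99, SE 0.41). The 4 mesoderm markers *T*, *Mesp1*, *Hand1* and *Kdr* summed to 1.47, 1.22 and 1.74 TPM on day 0 and to 566, 571 and 278 TPM on day 8. *Wnt3a* (0.394, 0.132 and 0.0872 TPM, then 2.75, 0.260 and 0.368 TPM) and the somite factor *Meox1* (1.75, 0.648 and 0.752 TPM, then 0.325, 0.824 and 3.97 TPM) were not called, and both groups of each overlapped.

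The window around the start site of *T*, a known target of Wnt signalling, is shown because *T* rose beside the Wnt genes described next. The capitals mark TCAAAG, the reverse of the core CTTTGA bound by TCF and LEF factors, 234 bases before the start site. The core is found in 16.0% of all windows, so a match is common.

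*T*, chr17:8434173-8434472, plus strand: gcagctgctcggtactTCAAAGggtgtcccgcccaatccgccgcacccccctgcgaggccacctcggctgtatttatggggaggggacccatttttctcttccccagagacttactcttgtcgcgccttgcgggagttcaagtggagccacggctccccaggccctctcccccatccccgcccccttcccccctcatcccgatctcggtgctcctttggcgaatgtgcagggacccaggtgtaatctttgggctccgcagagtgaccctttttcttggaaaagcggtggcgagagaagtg

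Ligands, receptors and targets of the Wnt, Nodal, BMP and FGF pathways moved in both directions. Of 39 tested, 25 were higher and 8 lower, with a median of 1.91. After *Fgf8*, the largest rises were those of *Msx2*, a homeobox target of BMP signalling, from 0.820, 0.538 and 0.382 TPM to 67.7, 104.9 and 50.7 TPM (log2 change 5.52, SE 0.26), and *Rspo3*, a secreted amplifier of Wnt signals, to 34.6, 21.4 and 16.7 TPM from at most 0.142 TPM (log2 change 4.52, SE 0.27). The 8 that fell are *Nodal*, its inhibitors *Lefty1* and *Lefty2*, *Fgf4*, the FGF ligand of undifferentiated cells, the FGF targets *Spry4*, *Etv4* and *Etv5*, and *Sfrp1*, a secreted Wnt inhibitor.

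*Nodal* went from 45.3, 44.9 and 35.6 TPM to 19.6, 9.02 and 15.2 TPM (log2 change -1.51, SE 0.25). *Fgf4* went from 93.6, 97.2 and 90.2 TPM to 4.42, 4.75 and 6.27 TPM (log2 change -3.96, SE 0.14). So 2 genes for ligands of the same family, *Fgf4* and *Fgf8*, moved in opposite directions without overlap. The Wnt effector *Tcf7* passed the adjusted p but not the size threshold (0.77, adjusted p = 0.00136), and the FGF feedback inhibitor *Spry2* was not called (-0.26, adjusted p = 0.257).

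The retinoic acid pathway, which patterns the trunk and switches on *Hox* genes, had 9 members higher and 1 lower of 15 tested (median 1.28). *Cyp26a1* (chr19:37697798-37701536 of mm10, plus strand), the enzyme that degrades retinoic acid and is itself induced by it, went from 0.634, 0.132 and 1.05 TPM to 206, 99.0 and 95.8 TPM (log2 change 6.34, SE 0.33, adjusted p = 8.66e-06), by way of means of 9.69 TPM on day 4 and 80.1 TPM on day 6. *Crabp2*, a carrier that brings retinoic acid to its receptors, rose from 4.997, 4.53 and 3.61 TPM to 47.6, 103 and 154 TPM (log2 change 4.11, SE 0.37). Both were higher in every day 8 library. The member that fell was *Stra8*, the retinoic acid target of germ cells entering meiosis, from 15.2, 11.1 and 10.2 TPM to 0.0541, 0.282 and 0.725 TPM (log2 change -3.30, SE 0.25). The receptor genes *Rarg* (-0.36, adjusted p = 0.128) and *Rara* (-0.93, adjusted p = 0.00216) were not called, and *Rara* passed the size threshold without day 0 replicate 3 (-1.08). Without that library the count of members that fell was 2.

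The *Cyp26a1* window is printed for the paired element in it. The capitals mark a repeat of TGAACT with 5 bases between its copies. It is the reverse of AGTTCA repeats of the spacing that retinoic acid receptors prefer. The repeat begins 32 bases before the RefSeq start site of this window, a site downstream of the GENCODE start given above. A pair of AGTTCA or AGGTCA at this spacing, on either strand, is found in 13 of the 32817 windows (0.0396%).

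*Cyp26a1*, chr19:37697558-37697857, plus strand: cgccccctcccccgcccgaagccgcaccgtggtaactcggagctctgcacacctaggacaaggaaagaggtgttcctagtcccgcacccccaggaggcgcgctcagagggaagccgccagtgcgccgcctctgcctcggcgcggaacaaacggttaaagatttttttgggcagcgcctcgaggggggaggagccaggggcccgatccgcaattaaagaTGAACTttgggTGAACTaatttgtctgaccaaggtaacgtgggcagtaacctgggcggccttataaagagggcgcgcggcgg

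The *Hox* genes, which give cells their position along the body axis, rose in all 4 clusters. Of 34 tested, 33 were higher and 1, *Hoxc13*, was lower, and the median was 2.58. The largest rises were those of *Hoxd9*, from 0.0984, 0.110 and 0.120 TPM to 39.5, 60.7 and 22.9 TPM (log2 change 5.14, SE 0.32), and *Hoxb2*, listed at 0 in all day 0 libraries and at 19.4, 20.6 and 22.02 TPM on day 8 (adjusted p = 3.09e-06). *Hoxc13* had 3.47, 3.51 and 3.81 TPM on day 0 and 0.585, 1.75 and 0.468 TPM on day 8 (log2 change -1.31, SE 0.26).

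Among the *Hox* genes that rose, the medians of timing and of spread between libraries followed the paralogue number. This number is the order of the genes along each cluster from its 3′ end. By day 6, paralogues 1 to 4 (11 genes) had covered a median of 58.9% of their log2 change, paralogues 5 to 8 (10 genes) 39.5%, and paralogues 9 to 13 (12 genes) 24.9%. Single genes ranged over 35.4% to 91.8%, 18.3% to 66.8% and 5.02% to 59.7%, so the groups overlapped. *Hoxc13*, the gene of the last group that fell, had covered 138% of its change by day 6 and is left out of these medians. On day 8, replicate 2 exceeded replicate 3 by a median of 1.40 times for paralogues 1 to 4, 3.52 times for 5 to 8 and 6.75 times for 9 to 13. Replicate 2 was the highest day 8 library for 30 of the 34 genes, beside 5048 of all 15056 genes. Genes of a cluster are not independent of each other, so these medians are a description with no test. *Hoxa13*, at the 5′ end, had 3.84, 9.04 and 1.17 TPM on day 8, while *Hoxb1*, at the 3′ end, had 22.4, 11.8 and 17.6 TPM, with replicate 2 the lowest.

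**Figure D3:**
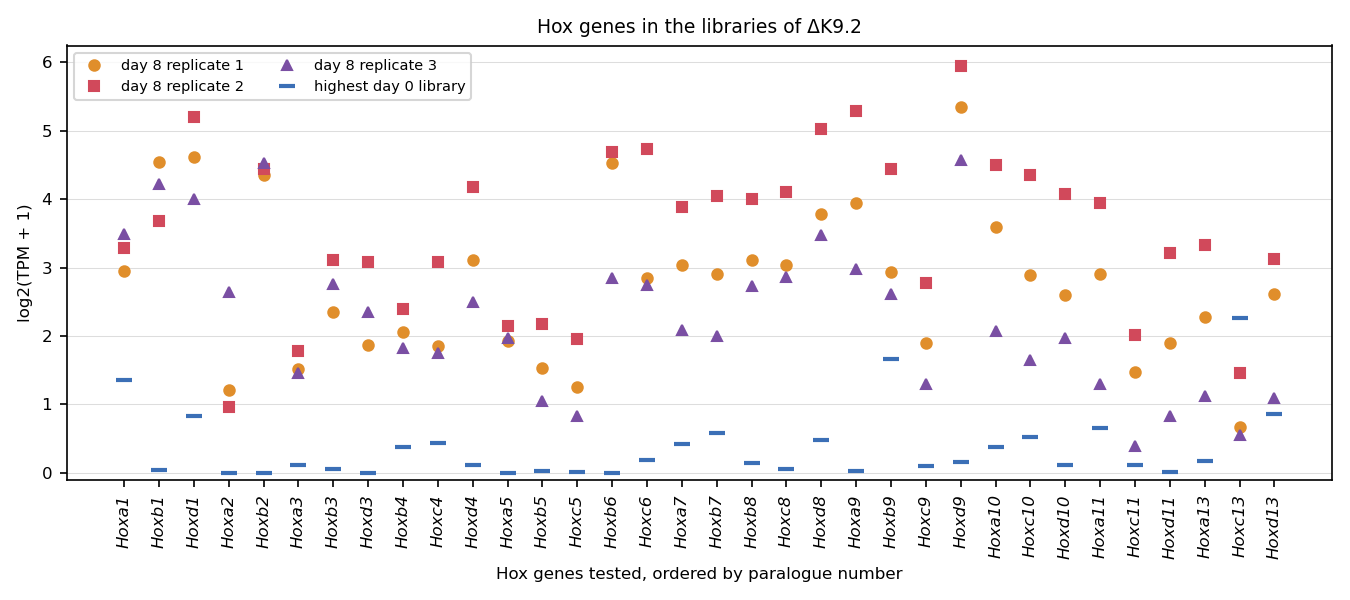
Values of log2(TPM + 1) on the vertical axis for the 34 *Hox* genes tested in ΔK9.2, ordered by paralogue number, with 1 symbol for each day 8 library and a bar for the highest of the 3 day 0 libraries. The 3 day 8 symbols lie close together for most low-numbered genes and spread with replicate 2 on top for the high-numbered ones, and *Hoxc13* is the gene whose day 8 symbols are all below the day 0 bar.

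Imprinted genes, which are read from 1 parental allele and include growth factors of the fetus, were higher in 20 of 24 cases and lower in 0 (median 2.45). *Igf2* (chr7:142650766-142666816 of mm10, minus strand), a growth factor of embryonic tissues, went from 3.38, 6.27 and 9.04 TPM to 706, 2189 and 997 TPM (log2 change 7.40, SE 0.43, adjusted p = 1.13e-05). *H19* (chr7:142575529-142578143, minus strand), the non-coding RNA of the same domain that is read from the other allele, went from 30.4, 16.0 and 24.7 TPM to 850.0, 2320 and 1162 TPM (log2 change 5.78, SE 0.36, adjusted p = 1.55e-05). For both genes day 8 replicate 2 was the highest and replicate 1 the lowest. *Dlk1*, a membrane ligand related to Notch ligands, rose from 1.04, 1.70 and 2.40 TPM to 49.1, 111 and 90.8 TPM (log2 change 4.92, SE 0.31). *Snrpn* (0.75) and *Impact* (-0.31) passed the adjusted p but not the size threshold.

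The epithelial and mesenchymal list had 13 members higher and 1 lower of 20 (median 2.04). *Cdh2*, N-cadherin of mesenchyme, rose from 0.722, 0.879 and 1.29 TPM to 91.4, 61.3 and 42.2 TPM (log2 change 5.01, SE 0.27). The keratins of simple epithelia rose as well, *Krt8* from 17.9, 14.4 and 11.3 TPM to 362, 595 and 479 TPM (4.94, SE 0.21) and *Krt18* by 4.82, so genes of mesenchyme and of epithelium were both higher on day 8. *Epcam*, an adhesion molecule of epithelia and ES cells, was not called (-0.06, adjusted p = 0.785). Without day 8 replicate 3 the count of members that fell was 2.

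Genes of fibroblast and smooth muscle matrix were higher in 15 of 19 cases and lower in 0 (median 1.82). *Tagln*, an actin-binding protein of smooth muscle, rose from 1.72, 4.45 and 3.795 TPM to 119.9, 149 and 280.1 TPM (log2 change 5.38, SE 0.35). *Acta2*, smooth muscle actin, reached 13.1, 53.0 and 106 TPM from at most 0.231 TPM (5.22, SE 0.63), a spread of several times between replicates of 1 day. *Col1a1*, a fibrillar collagen, reached 19.8, 58.0 and 29.7 TPM (4.63, SE 0.34). *Col3a1* (0.455, 11.2 and 5.74 TPM on day 8) and *Postn* (0.303, 4.22 and 4.57 TPM) were called, but each lost the call when any of 5 of the 6 libraries was left out, with adjusted p of 0.0574 to 0.0667 and 0.0584 to 0.0792. *Fn1*, fibronectin, was already at 219, 238 and 164 TPM on day 0 and was not called (0.36, adjusted p = 0.364), nor was *Des*, the intermediate filament of muscle (0.75, adjusted p = 0.158, but 1.27 and 0.00178 without day 8 replicate 1).

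The *Msx1*, *Cdx2*, *Prdm6*, *Pmp22* and *Sprr2a2* genes complete the group of largest rises. *Msx1*, a homeobox target of BMP signalling, went from 0.339, 0.275 and 0.185 TPM to 142, 172 and 78.0 TPM (log2 change 6.63, SE 0.27). *Cdx2*, a caudal factor of the posterior body and of trophoblast, went from 0.306, 0.0330 and 0.174 TPM to 132, 150.3 and 48.8 TPM (6.42, SE 0.39). *Prdm6*, a PR-domain repressor of vascular smooth muscle, rose by 5.51, and *Pmp22*, a membrane protein of peripheral myelin that many mesenchymal cells make, by 6.30. *Sprr2a2*, a small proline-rich protein of epithelia whose reads may be split among near-identical copies, rose from 1.19, 0.714 and 0.982 TPM to 186, 128 and 153 TPM (6.31, SE 0.17).

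Endoderm genes did not move as a group. Of 15 tested endoderm regulators, 5 were higher and 3 lower (median 0.67), and of 13 tested secreted proteins of visceral endoderm, 2 were higher and 3 lower (median -0.08). The 2 became 4 without day 8 replicate 2 or with a pseudocount of 0.1, and 1 with all 33 libraries in the fit. *Gata4* rose from 5.63, 0.330 and 0.752 TPM to 24.8, 27.2 and 16.4 TPM (log2 change 3.23, SE 0.55, adjusted p = 0.00184), *Pdgfra*, a growth factor receptor of endoderm and mesoderm, by 3.14, and *Gata6* from 7.44, 0.297 and 0.523 TPM to 12.4, 21.0 and 14.8 TPM (2.71, SE 0.64, adjusted p = 0.00919). In each, day 0 replicate 1 stood far above the other day 0 libraries.

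The same library held 24.6 TPM of *Dab2*, an endocytic adaptor of endoderm, against 3.14 and 1.84 TPM, and 8.82 TPM of *Sox17* against 0.615 and 0.545 TPM. *Sox17* (6.58, 10.9 and 6.58 TPM on day 8) and *Dab2* (6.21, 8.75 and 11.9 TPM) were not called with all libraries, and without day 0 replicate 1 they were, at 2.48 (adjusted p = 0.000695) and 1.496 (adjusted p = 0.00880). Without it the endoderm regulators gave 7 higher and 3 lower of 15. The 7 endoderm markers summed to 47.6, 4.49 and 4.18 TPM on day 0 and to 61.9, 71.2 and 54.3 TPM on day 8. That library was the highest on day 0 for 11 of the 15 regulators, beside 6270 of all 15056 genes. It was left out in turn for each list and named gene, and why it stands apart was not tested. *Foxa2* (1.09, 0.110 and 0.513 TPM, then 0.920, 0.466 and 2.36 TPM) and *Hhex* (0.67, adjusted p = 0.0155) were not called.

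*Afp*, alpha-fetoprotein, was listed at 0 in all day 0 libraries and had 9.01, 0.217 and 1.46 TPM on day 8 (adjusted p = 0.0697, but 0.0129 at a log2 change of 2.31 without day 8 replicate 2), and *Ttr*, transthyretin, was listed at 0 on day 0 and had 2.00, 2.71 and 0.803 TPM on day 8 (adjusted p = 0.00368, but 0.157 with all 33 libraries in the fit). Both had been higher on day 4, at means of 16.3 and 9.76 TPM. The members that rose are *Ttr* and *Igf2*, and *Igf2* is made by many embryonic tissues. Those that fell include *Trf*, transferrin, from 9.84, 5.68 and 6.58 TPM to 1.81, 0 and 0.814 TPM (log2 change -2.25, SE 0.38), and *Apoc1*, a small apolipoprotein, from 206, 181 and 151 TPM to 29.7, 27.3 and 63.3 TPM (-2.22, SE 0.29). *Apoe*, an abundant apolipoprotein, had 744, 691 and 757 TPM and then 322, 440.1 and 717 TPM (-0.64, adjusted p = 0.0631).

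Of 12 tested members of a list named for uptake receptors of visceral endoderm, 3 were higher and 1, *Rhox5*, was lower. The 3 that rose, named below, are not uptake receptors, so these counts do not describe uptake. Without day 0 replicate 1 the higher count was 5, and the lower count was 2 without day 0 replicate 3 and 3 with the replicate block. The leading riser was *Amot*, a junction protein of the Hippo pathway, from 4.11, 1.60 and 1.48 TPM to 209, 196 and 59.0 TPM (log2 change 5.40, SE 0.49), followed by *Cited1*, a co-activator, at 4.13 and *Slc39a8*, a zinc transporter, at 3.03. *Fgd5*, an exchange factor of endothelium, was not called (0.74, adjusted p = 0.0128). Basement membrane genes gave 2 higher and 3 lower of 14 (median 0.12). The higher count was 5 without day 0 replicate 1 and 1 without any other library but day 8 replicate 1. The laminin chain *Lama4* rose by 2.20, while *Lama1*, the chain of the early embryo, fell by 1.71 and *Nid1*, nidogen, by 1.47. *Lama1* too was highest in day 0 replicate 1, at 41.0 TPM against 15.3 and 13.9 TPM. *Col18a1* (-0.36) and *Agrn* (0.57) were not called.

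**Figure D4:**
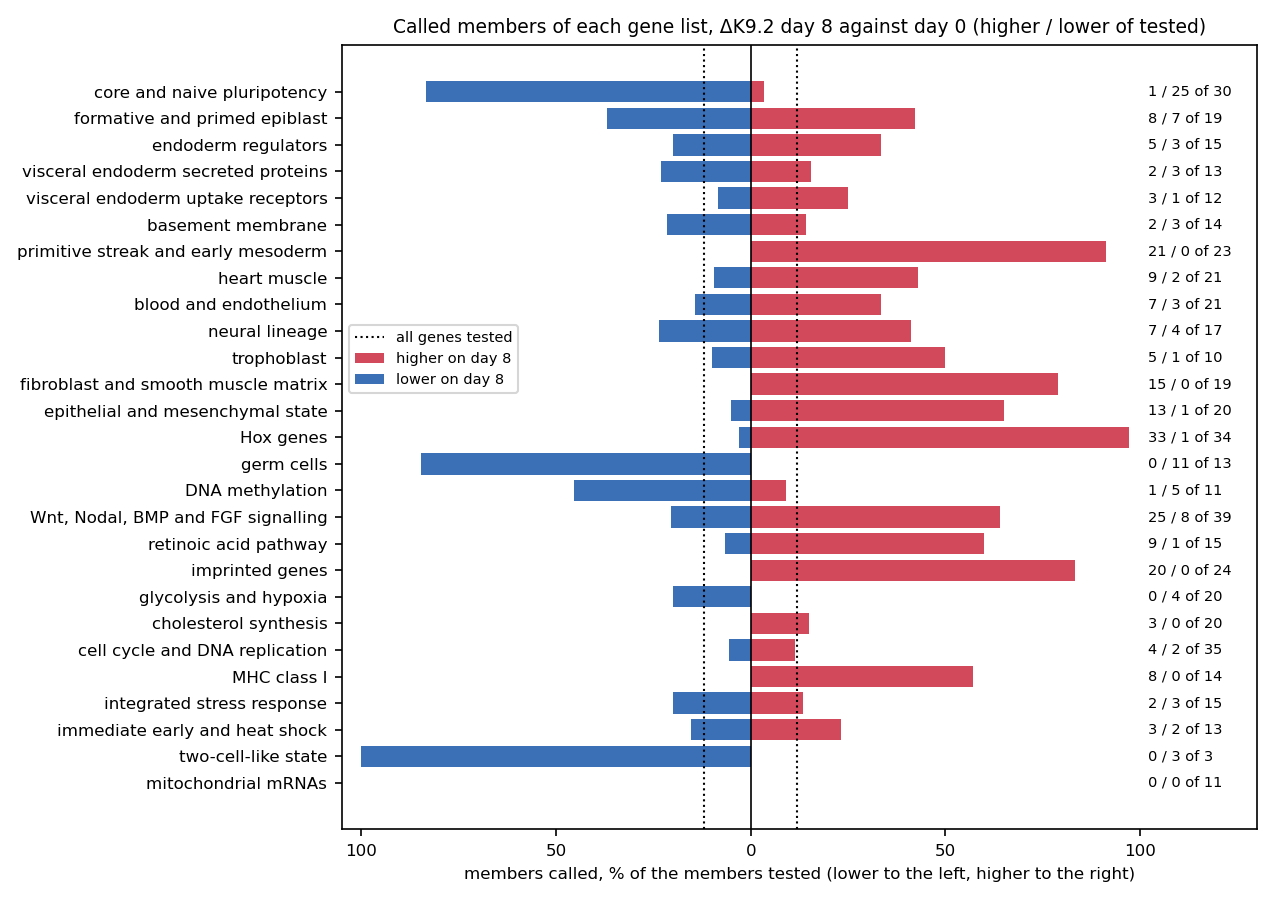
Share of the tested members of each of 27 gene lists that were called higher (red, to the right) or lower (blue, to the left) in ΔK9.2 on day 8 against day 0, in percent, with the counts at the right edge and dotted lines at the shares over all genes tested, 11.8% higher and 12.1% lower. The bars for *Hox* genes (33 of 34) and primitive streak (21 of 23) reach furthest right, those for two-cell-like, germ cell and pluripotency genes furthest left, and mitochondrial mRNAs have no bar.

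Heart, blood and neural genes moved in part. Among heart muscle genes, 9 of 21 were higher and 2 lower (1 lower without day 0 replicate 2 or day 8 replicate 2, median 0.74). *Hand2*, a bHLH factor of heart and limb mesoderm, rose from 0, 0.0659 and 0 TPM to 21.4, 66.3 and 27.9 TPM (log2 change 5.11, SE 0.37), and *Isl1*, a LIM factor of heart progenitors, by 3.96. Genes of the contractile apparatus were at unlike levels. *Tnnc1*, troponin C of slow and cardiac muscle, rose by 4.64 to 26.7, 65.0 and 50.2 TPM, and *Actc1*, cardiac actin, by 3.63 to 12.4, 9.11 and 13.9 TPM. *Myh6*, a cardiac myosin heavy chain, had 5.27, 1.0 and 1.43 TPM and then 1.05, 0.228 and 0.625 TPM, and *Tnnt2*, troponin T, 1.31, 3.72 and 2.57 TPM on day 8 (1.14, adjusted p = 0.0223, lost when any of 4 libraries was left out, at up to 0.0730). The heart factor *Nkx2-5* had at most 1.38 TPM. *Tnni3* (-0.94) and *Myl4* (0.79) were not called, and without day 8 replicate 1 both were (-1.04 and 1.22, adjusted p of 0.0197 and 0.00545), *Tnni3* also without day 0 replicate 3 (-1.20).

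In the blood and endothelium list, 7 of 21 were higher (4 without day 0 replicate 2 or 3) and 3 lower (median 0.90), and 17 of the 21 were highest in day 8 replicate 2. The embryonic globin *Hbb-bh1* was listed at 0 on day 0 and had 1.26, 172 and 51.1 TPM on day 8 (adjusted p = 0.0179, lost at 0.0501 to 0.0599 when any day 0 library or day 8 replicate 3 was left out). *Hba-x* (0, 28.3 and 5.66 TPM on day 8, 0 on day 0) was not called (adjusted p = 0.0683), although it was without day 8 replicate 1 (3.80, adjusted p = 0.00143) and with all 33 libraries in the fit (2.54, adjusted p = 0.0434), and *Gata1*, the erythroid factor, stood at 2.13, 1.81 and 1.27 TPM and then at 0.238, 1.46 and 0.903 TPM. For both globins day 8 replicate 2 was high and replicate 1 at or near 0.

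*Lmo2* and *Etv2*, transcription factors of blood and vessel precursors, were the 2 genes of the list that were highest in day 8 replicate 1. *Lmo2* had 28.0, 20.0 and 8.64 TPM on day 8 (3.39, SE 0.38) and *Etv2* 33.6, 11.8 and 4.90 TPM (2.98, SE 0.56). *Egfl7*, an endothelial secreted factor, was at 54.5, 40.6 and 45.7 TPM on day 0 and was not called (0.62, adjusted p = 0.0308).

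Neural genes gave 7 higher and 4 lower of 17 (median 0.95). The list's leader was *Msx1*, which also marks mesoderm. *Nes*, the filament of neural and other progenitors, rose by 2.72, and *Tubb3*, the tubulin of neurons, fell from 48.1, 59.8 and 66.0 TPM to 9.26, 6.19 and 4.997 TPM (log2 change -2.94, SE 0.22). The defining neural factors were low on both days, *Sox1* at 2.53, 2.71 and 2.44 TPM and then 0.790, 0.542 and 7.23 TPM, and *Pax6* at 2.41, 3.46 and 4.60 TPM and then 1.07, 0.455 and 3.54 TPM. Neither was called, and day 8 replicate 3 was the high library for both. Without that library *Sox1* was lower by log2 1.10 (adjusted p = 0.00470) and *Pax6* by log2 1.34 (adjusted p = 0.00819). *Dll1*, a Notch ligand (1.38, adjusted p = 0.0836), and *Map2* (0.03, adjusted p = 0.911) were not called, and *Dll1* was with the replicate block (adjusted p = 0.0213), with all 33 libraries in the fit (0.0228) and without day 8 replicate 2 (2.01, adjusted p = 0.0108).

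Trophoblast genes gave 5 higher and 1 lower of 10 (2 lower without day 0 replicate 3, median 0.87). The leaders *Hand1* and *Cdx2* are shared with mesoderm and the posterior body, and *Gata3* rose from 0.109, 0.0440 and 0.196 TPM to 6.18, 13.6 and 8.08 TPM (log2 change 3.14, SE 0.27). *Tead4* (-0.70, adjusted p = 0.0200) and *Ly6a* (0.06, adjusted p = 0.920) were not called.

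Germ cell genes fell with the naive network, with 0 higher and 11 lower of 13 (median -1.91). *Tex14*, a protein of germ cell bridges, went from 23.2, 16.9 and 20.5 TPM to 0.487, 1.95 and 0.580 TPM (log2 change -3.47, SE 0.28), and *Mael*, a factor of transposon silencing, fell by 2.70. *Dppa3* (17.0, 39.6 and 56.8 TPM, then 10.5, 16.2 and 28.9 TPM, adjusted p = 0.124) and *Dnd1* (-0.67, adjusted p = 0.0130) were not called, and *Dppa3* was without day 0 replicate 1 (-1.42, adjusted p = 0.0239) or day 8 replicate 3 (-1.31, adjusted p = 0.0499). Among genes of DNA methylation, 5 of 11 were lower and 1, *Tet3*, higher. *Tet1*, the 5-methylcytosine oxidase of ES cells, went from 145, 122 and 108 TPM to 11.1, 10.2 and 9.35 TPM (-3.48, SE 0.14), *Tet2* fell by 3.39 and *Dnmt3l*, the cofactor of de novo methylation, by 3.35. The maintenance genes *Dnmt1* (-0.30) and *Uhrf1* (-0.48) were not called. All 3 tested *Zscan4* genes of the two-cell-like state fell, *Zscan4f* from 29.7, 5.81 and 9.67 TPM to 0.801, 1.14 and 0.368 TPM (-2.91, SE 0.50), *Zscan4c* by 2.29 and *Zscan4d* by 1.60. They are near-identical copies whose reads may be split, and day 0 replicate 1 was again the high library.

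Of 14 genes of MHC class I, 8 were higher and 0 lower (median 1.51), and 12 of the 14 were highest in day 8 replicate 3. *Psmb8*, a subunit of the immunoproteasome, went from 0.405, 0.264 and 0.643 TPM to 37.1, 28.5 and 58.4 TPM (log2 change 4.83, SE 0.27, adjusted p = 1.03e-05). The peptide transporter *Tap2* rose by 2.89 and its partner *Tapbp* from 11.4, 11.6 and 9.90 TPM to 47.7, 41.7 and 56.0 TPM (2.04, SE 0.14). *Psmb10* (0.68) and the class I heavy chain *H2-D1* (0.67, a gene with near-identical relatives) passed the adjusted p but not the size threshold.

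In lists of metabolism, the cell cycle and stress, the shares called stood on both sides of the 11.8% higher and 12.1% lower of all genes. Of 20 genes of glycolysis and hypoxia, 0 were higher and 4 lower. *Pfkp*, a phosphofructokinase, fell by 2.52, *Hk1* by 1.70 and *Hk2* by 1.35, while the abundant *Pkm* (2495, 2477 and 2334 TPM, then 2599, 2254 and 1771 TPM) and *Ldha* (0.40, adjusted p = 0.116) were not called. Cholesterol synthesis gave 3 higher (6 without day 8 replicate 1) and 0 lower of 20 (median 0.69), led by *Cyp51* at 1.33, *Hmgcs1* at 1.21 and *Sc5d* at 1.06 (0.90 to 0.99 without day 0 replicate 1 or day 8 replicate 2 or 3), and 18 of the 20 were highest in day 8 replicate 2. *Fdps* (0.95, and 1.14 without day 8 replicate 1) and *Srebf2* (0.43) stayed under the size threshold with all libraries.

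Of 35 cell cycle and replication genes, 4 were higher and 2 lower (1 lower without day 8 replicate 1 or day 0 replicate 3, median -0.01). *Ccnd2*, a D-type cyclin, rose by 2.20, *Cdkn1c*, an imprinted cell cycle inhibitor, by 2.16 and *Ccne2* by 1.65, while *Cdk1* (0.33) and *Cdk4* (0.43) did not pass the size threshold. The integrated stress response gave 2 higher and 3 lower (5 without day 8 replicate 1) of 15 (median -0.47). *Nupr1*, a stress-induced chromatin protein, fell by 3.60, *Vldlr* and *Atf3* rose by 2.61 and 1.76, and *Atf4* (-0.46) and *Asns* (-0.72) were not called. Of these 15, 13 were highest in day 8 replicate 1. Immediate early and heat shock genes gave 3 higher and 2 lower of 13, with *Jun* up by 2.37 and *Hspb1* down from 695, 505 and 588 TPM to 119, 133 and 183 TPM. *Hsph1* (-0.20) and *Ier2* (-0.48) were not called. None of 11 mitochondrial mRNAs was called by limma, 2 of them with an adjusted p under 0.05 (median -0.26), and all listed mitochondrial transcripts, with the ribosomal RNAs *mt-Rnr1* and *mt-Rnr2*, made up 3.05% to 3.79% of TPM on day 0 and 2.73% to 3.25% on day 8.

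The net change of ΔK9.2 was then set against that of E14Tg2a, with the difference of the 2 changes as the tested quantity. Of 15708 genes, 13 changed more positively in ΔK9.2 (0.0828% of those tested) and 54 more negatively (0.344%), and 2418 genes (15.4%) had an unadjusted p under 0.05. Libraries of the same replicate number and day were correlated between the lines, and with the replicate number within each day as a block the counts were 99 (0.63%) and 459 (2.92%), which include all 13 and all 54. The minimum of 1 TPM was set over both lines, so 652 genes were tested only because of their level in E14Tg2a and 528 only because of ΔK9.2, and the sign of a difference in those genes was largely fixed by the minimum. Of the 14528 genes that reached it in each line, 11 (0.0757%) changed more positively in ΔK9.2 and 36 (0.248%) more negatively, and 90 (0.619%) and 376 (2.59%) with the block. The list counts that follow are over these genes. Each line's own values are given side by side below. Both comparisons use the same ΔK9.2 libraries, and E14Tg2a day 0 replicate 1 was the high day 0 library there too, with 11.8, 0.938 and 2.08 TPM of *Gata6* and 58.2, 2.67 and 4.27 TPM of *Dab2*.

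*Nanog* kept more of its level in ΔK9.2. In E14Tg2a it went from 326, 338 and 368 TPM to 34.6, 23.7 and 21.97 TPM, which is 7.77% of the day 0 mean, against 24.6% in ΔK9.2. The log2 changes were -3.66 and -2.06 and differed by 1.61 (SE 0.29, adjusted p = 0.0349, and 0.0133 with the block). The call was kept in 8 of 19 alternatives, with an adjusted p of up to 0.116. The day 8 libraries of the lines did not overlap.

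The differences with the largest negative values were in secreted proteins of visceral endoderm. Of 13 such genes at the minimum in each line, 5 changed more negatively in ΔK9.2 (4 to 6 without 1 library, 10 with the block) and 0 more positively, and the median change of these 13 was -0.08 in ΔK9.2 and 2.82 in E14Tg2a. *Apoa4*, *Apob*, *Apoc2*, *Fgb* and *Serpinf2* reached the minimum in E14Tg2a alone and are not counted. *Rbp4*, the plasma carrier of retinol, went from 4.48, 5.61 and 5.02 TPM to 9.61, 11.8 and 7.80 TPM in ΔK9.2 and from 3.99, 4.18 and 3.40 TPM to 123, 195 and 143 TPM in E14Tg2a. The difference of the changes was -4.15 (SE 0.27, adjusted p = 1.53e-05). *Ttr* reached 2.00, 2.71 and 0.803 TPM in ΔK9.2 and 114, 104 and 64.5 TPM in E14Tg2a (difference -4.84, adjusted p = 0.000292, and 0.0755 with a pseudocount of 0.1), and *Spink1*, a secreted protease inhibitor, 3.24, 10.7 and 6.69 TPM and 252, 199 and 392 TPM (difference -5.15, adjusted p = 0.0162, lost at up to 0.0528 without ΔK9.2 day 0 replicate 1 or 3). In each, the E14Tg2a libraries of day 8 were all above those of ΔK9.2.

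The apolipoprotein gene *Apom*, whose product carries lipids in lipoprotein particles, had a difference of -4.05 (adjusted p = 0.00463). *Apob*, the scaffold of such particles, was one of the genes whose sign was fixed by the minimum, and was at 0.465, 0.347 and 0.167 TPM on day 8 in ΔK9.2 and at 15.7, 22.01 and 9.76 TPM in E14Tg2a. The endoderm regulator *Hnf4a* had a difference of -3.49 (adjusted p = 0.00332), and *Foxa1* reached the minimum in E14Tg2a alone. *Hnf4a* fell in ΔK9.2, from 6.66, 3.02 and 2.51 TPM to 0.108, 0.455 and 0.323 TPM, and stood at 8.40, 11.4 and 11.0 TPM in E14Tg2a on day 8. Other endoderm genes with the same sign passed only with the block, such as *Afp* (9.01, 0.217 and 1.46 TPM against 129, 20.4 and 49.2 TPM, adjusted p = 0.0835 without and 0.000850 with it), *Sox17* (0.460 and 0.0214) and *Dab2* (0.460 and 0.0344). Of the 15 endoderm regulators at the minimum in each line, 1 was called lower without the block and 4 with it.

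The block also moved the counts of lists that hold few or no calls without it. With it, 11 of 21 genes of blood and endothelium (1 without) and 7 of 21 of heart muscle (1 without) changed more negatively in ΔK9.2. So did 8 of 19 of fibroblast and smooth muscle matrix (0 without) and 7 of 14 of basement membrane (0 without). The same held for 4 of 12 of the uptake list, 5 of 24 imprinted genes and 3 of 20 of the epithelial and mesenchymal list (0 without in each). In the positive direction there were 5 of 30 of pluripotency (2 without), 6 of 21 of the streak (1 without) and 7 of 39 of signalling (1 without). There were also 4 of 19 of the formative and primed epiblast and 3 of 13 of MHC class I (0 without in each). Without the block, the blood and endothelium count was 0 to 9 when 1 library was left out, the highest without ΔK9.2 day 8 replicate 2. The same range was 0 to 3 for heart muscle, 0 to 3 for fibroblast and smooth muscle matrix and 0 to 1 for basement membrane.

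**Figure D5:**
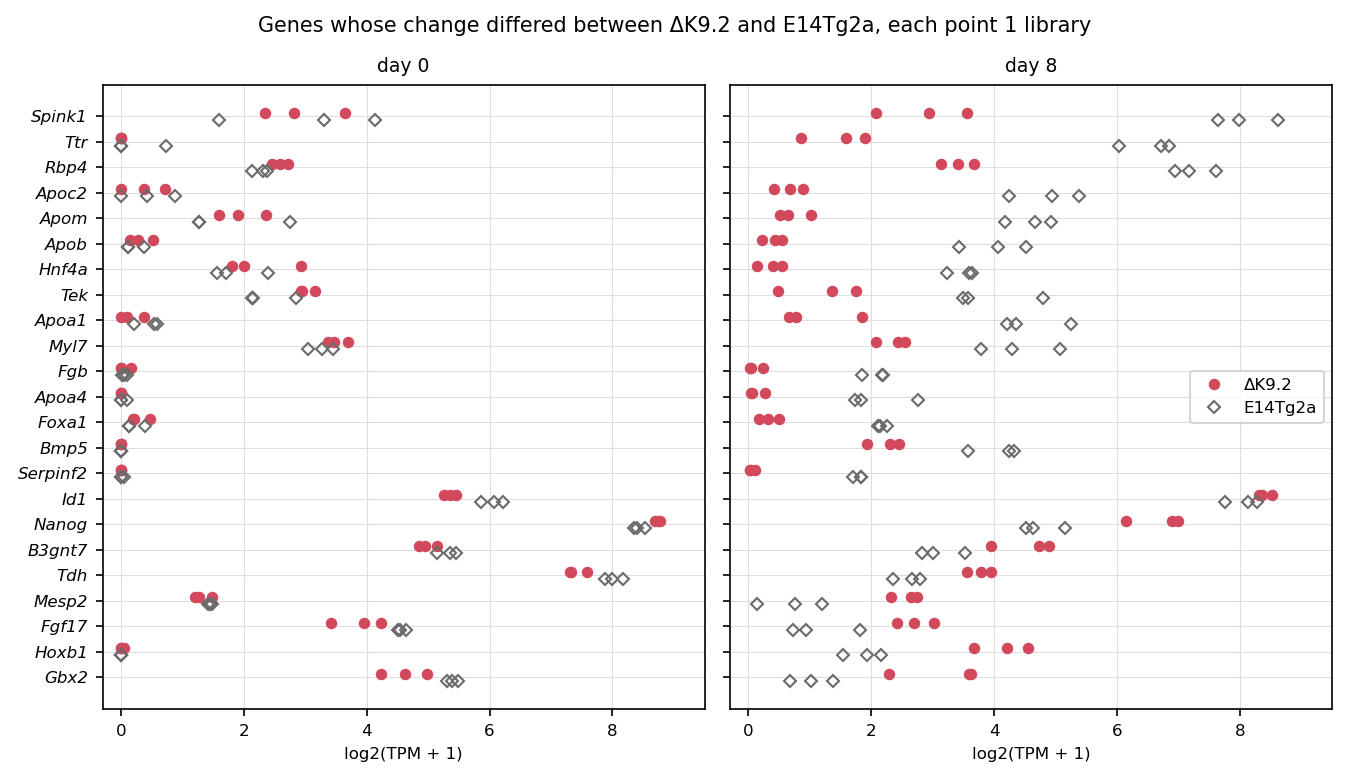
Values of log2(TPM + 1) on the horizontal axis on day 0 (left) and day 8 (right) for the 23 named or listed genes whose change was called different, with 1 point per library, filled red for ΔK9.2 and open grey for E14Tg2a. On day 8 the lines are apart for the visceral endoderm genes from *Spink1* to *Apob* with E14Tg2a above, and for *Nanog*, *Tdh*, *Hoxb1* and *Gbx2* with ΔK9.2 above, while *Id1* in ΔK9.2 is below E14Tg2a on day 0 and above it on day 8.

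Differences in the positive direction were fewer. *Gbx2*, a homeobox gene of ES cells and of the early hindbrain, fell from 30.7, 23.6 and 17.7 TPM to 11.1, 3.87 and 11.3 TPM in ΔK9.2 and from 43.6, 40.9 and 38.5 TPM to 1.58, 0.592 and 1.03 TPM in E14Tg2a (difference 2.93, SE 0.46, adjusted p = 0.0163, lost at up to 0.0612 without day 0 replicate 2 or 3 of either line). *Hoxb1* (chr11:96365752-96368256 of mm10, plus strand), a 3′ *Hox* gene of the posterior streak, reached 22.4, 11.8 and 17.6 TPM against 2.82, 1.91 and 3.46 TPM (2.25, SE 0.32, adjusted p = 0.00996, and 0.0795 with a pseudocount of 0.1). It was the 1 *Hox* gene with a called difference of the 31 at the minimum in each line, with and without the block, and their median difference was -0.02.

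*Tdh*, the threonine dehydrogenase of ES cells, was left at 10.8, 12.8 and 14.4 TPM from 157, 191 and 159 TPM, against 5.37, 5.93 and 4.14 TPM from 235, 286 and 254 TPM (1.77, SE 0.21, adjusted p = 0.00233). *Fgf17*, an FGF ligand related to *Fgf8*, was left at 7.10, 4.37 and 5.47 TPM against 2.51, 0.656 and 0.923 TPM (2.24, adjusted p = 0.0331), and *B3gnt7*, a glycosyltransferase, had a difference of 1.74 (adjusted p = 0.0490). *Mesp2*, a relative of *Mesp1*, and *Id1*, a BMP target, had differences of 2.00 and 1.03 (adjusted p of 0.0274 and 0.0453). The calls of *Fgf17*, *B3gnt7* and *Id1* were kept in 7, 5 and 3 of 19 alternatives and that of *Mesp2* in 10 of 18, with adjusted p of up to 0.106, 0.150, 0.130 and 0.0997. *T* had 218, 42.2 and 32.9 TPM on day 8 against 44.9, 1.46 and 4.09 TPM in E14Tg2a, and its difference of 3.11 had an adjusted p of 0.271, and of 0.0237 with the block. The same held for *Pou5f1* (1.74, adjusted p = 0.162 and 0.00166) and *Fgf8* (2.90, adjusted p = 0.137 and 0.0498).

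Against ΔK9.1, the other clone, 0 of 15579 genes were called by limma (0%), 1019 genes (6.54%) had an unadjusted p under 0.05, and with the replicate number within each day as a block 1 gene was higher and 2 were lower. *Nanog* was left at 21.1% of its day 0 mean in ΔK9.1, with a log2 change of -2.44 against -2.06. Over the members at the minimum in all 3 lines, the median changes of ΔK9.2 and ΔK9.1 were -3.26 and -2.97 for 30 pluripotency genes, 3.37 and 3.06 for 21 streak and mesoderm genes, 2.70 and 3.04 for 31 *Hox* genes, and -0.35 and 0.30 for 12 secreted proteins of visceral endoderm. In E14Tg2a the medians of the same genes were -3.87, 2.21, 2.75 and 2.71. In some other lists the clones lay further apart. In the order ΔK9.2, ΔK9.1 and E14Tg2a, the medians were 0.67, 1.41 and 1.80 for 15 endoderm regulators. They were 0.75, 1.66 and 1.73 for 10 genes of the visceral endoderm uptake list. For 21 genes of blood and endothelium they were 0.90, 1.74 and 2.93, and for 12 of MHC class I 1.54, 0.84 and 1.24. In simulated data of the same spread, this comparison called 97 of 100 genes with a difference of 3 and 74 of 100 with a difference of 1.5. The differences were placed in the more abundant genes only, so these rates do not cover genes near the minimum. A missed call therefore does not show that the clones changed alike.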

How the data were processed

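Poly-A RNA of 33 samples was sequenced from strand-specific libraries. The authors used STAR for alignment to mm10 and RSEM for quantification, and the values were deposited as TPM per gene and library in a table of 16336 genes. Tool versions and the gene annotation are not given in the sources used here. The table also holds 22 columns of the authors' own DESeq2 log2 fold changes and adjusted p-values between lines or days, which were not used. RSEM divides reads among near-identical copies, so *Zscan4*, *Sprr2a2*, *Rpl10l* and MHC class I values are uncertain. TPM keep no read depth, so the precision of a value was judged from its replicates.

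TPM of the 6 ΔK9.2 libraries were compared as log2(TPM + 1) with limma 3.58.1 in R 4.3.3 (empirical Bayes with an intensity trend, two-sided, Benjamini-Hochberg adjustment over all genes tested), after removal of genes that averaged less than 1 TPM on both days. This scale understates the change of low genes. Genes with an adjusted p under 0.05 and a log2 change above 1 in either direction were called. The changes of ΔK9.2 and of E14Tg2a or ΔK9.1 were compared by the interaction of line and day over 12 libraries each. An exact permutation test of 3 against 3 libraries cannot go below 0.1 and was not used for calls. Figures were drawn with matplotlib 3.10.9 in Python 3.11.15. Genes were placed by symbol on mm10 with GENCODE M21, and promoter windows come from RefSeq on GRCm38.p6. The promoter table used here had no entry for *Hand1*, *Ttr*, *Mixl1*, *Fgf8*, *H19* or *Tagln*. The gene lists were searched by symbol.

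Named genes are *Nanog*, the 12 largest rises and falls among called genes of at least 10 TPM whose groups do not overlap, in each list the 3 largest called changes and the 2 most abundant genes not called, and the 6 largest differences to E14Tg2a in each direction, without unnamed gene models. Cell type markers were named from a list. *Lin28a*, *Hoxc13*, *Hoxa13*, *Tet3*, *Fgf5*, *Actc1*, *Rhox5*, the 8 signalling genes that fell and the other differences to E14Tg2a were named after their values were seen. The comparison, the members and the lists were chosen with earlier results of these data known.

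The lines were differentiated in parallel, per the study's methods, in 3 independent assays. Libraries of the same number and day deviated together between ΔK9.2 and E14Tg2a (r of 0.207 to 0.333) and between ΔK9.2 and ΔK9.1 (0.174 to 0.413), so the numbers pair the libraries between lines. The counts and adjusted p of the comparisons between lines come from the fit without the pairing unless they are given as with the block. Between day 0 and day 8 of ΔK9.2 the same numbers gave r of -0.030, 0.022 and 0.039, so those days were not paired. Other settings tried were 0.1 as the pseudocount, 5 TPM or nothing as the minimum, rescaling by the median ratio, all 33 libraries in the fit, replicate blocks, and each library left out in turn. On simulated data of the same spread, 89 of 100 genes changed by 1.5 and 100 of 100 changed by 3 were called between the days, with 5 unchanged genes called of the 14274 genes simulated.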

Additional observations from a re-analysis of the deposited data

Results flagged for a closer look

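The change between day 0 and day 8 differed between ΔK9.2 and E14Tg2a, by the interaction of line and day in limma with an adjusted p under 0.05, for 23 genes that are named or on a list. The negative differences (ΔK9.2 minus E14Tg2a, log2 scale) in genes of visceral endoderm and its secreted proteins were -5.15 for *Spink1*, -4.84 for *Ttr*, -4.15 for *Rbp4*, -4.11 for *Apoc2*, -4.05 for *Apom*, -3.72 for *Apob*, -3.49 for *Hnf4a*, -3.23 for *Apoa1*, -1.96 for *Fgb*, -1.95 for *Apoa4*, -1.91 for *Foxa1* and -1.72 for *Serpinf2*. *Apob*, *Apoc2*, *Fgb*, *Apoa4*, *Foxa1* and *Serpinf2* averaged under 1 TPM in ΔK9.2 on both days and were tested only because of E14Tg2a, where they were higher, so the sign of their difference was set by the minimum.

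The other negative differences were -3.39 for *Tek*, an angiopoietin receptor of endothelium, -2.28 for *Myl7*, a light chain of atrial muscle, and -1.82 for *Bmp5*, a BMP ligand, and were called in 14, 12 and 10 of 19 alternatives. *Tek* went from 7.95, 6.67 and 6.60 TPM to 0.390, 2.36 and 1.56 TPM in ΔK9.2 and from 6.18, 3.41 and 3.43 TPM to 10.3, 26.7 and 10.9 TPM in E14Tg2a. *Myl7* went from 10.04, 11.97 and 9.29 TPM to 4.43, 4.87 and 3.21 TPM in ΔK9.2 and from 9.94, 7.26 and 8.63 TPM to 12.9, 18.7 and 32.6 TPM in E14Tg2a.

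The positive differences were 2.93 for *Gbx2*, 2.25 for *Hoxb1*, 2.24 for *Fgf17*, 2.00 for *Mesp2*, 1.77 for *Tdh*, 1.74 for *B3gnt7*, 1.61 for *Nanog* and 1.03 for *Id1*. *Mesp2* rose in ΔK9.2, from 1.804, 1.31 and 1.41 TPM to 5.24, 4.00 and 5.68 TPM, and had 1.66, 1.72 and 1.798 TPM and then 1.29, 0.108 and 0.684 TPM in E14Tg2a.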

How the results depend on the processing

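The counts of genes changed between day 0 and day 8 in ΔK9.2 stayed within 1.5 times of 1770 higher and 1824 lower in every alternative run, at 1634 to 1930 higher and 1714 to 1946 lower without a library, 2144 and 2242 with a pseudocount of 0.1, 1273 and 1237 with a minimum of 5 TPM, and 1757 and 1826 with a replicate block. Of 1865 values of 157 named or marker genes under the alternatives, 1800 kept their direction and call. The exceptions among called genes were *Col3a1*, *Postn*, *Hbb-bh1*, *Tnnt2*, *Sc5d* and *Fgf17* without some libraries and *Apom* and *Ttr* with all 33 libraries in the fit. *Sc5d* was at 0.90 to 0.99 without day 0 replicate 1 or day 8 replicate 2 or 3, and *Fgf17* at -0.98 without day 0 replicate 2. Genes that were not called and gained the call in 1 or more alternatives include *Afp*, *Dab2*, *Des*, *Dll1*, *Dppa3*, *Fdps*, *Hba-x*, *Myl4*, *Nkx2-5* (with a pseudocount of 0.1), *Pax6*, *Rara*, *Sox1*, *Sox17*, *Tbx3* and *Tnni3*. With a minimum of 5 TPM, which tests fewer genes, 20 *Hox* genes in place of 33 and 3 neural genes in place of 7 were called higher. Genes that were not called and changed sign without a library ranged from -0.090 to 1.496 for *Dab2*, -0.20 to 0.11 for *Epcam*, -0.37 to 0.015 for *Hsph1*, -0.27 to 0.57 for *Ly6a*, -0.10 to 0.22 for *Map2*, -0.36 to 0.59 for *Meox1*, -0.21 to 0.083 for *Sall4*, -1.10 to 0.11 for *Sox1*, -0.42 to 0.31 for *Spink1* and -0.12 to 0.052 for *mt-Atp6*.

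The number of differences to E14Tg2a was less stable than the changes themselves. Against 67 (13 higher, 54 lower), there were 305 (39 and 266) with all 33 libraries, 30 (6 and 24) with a pseudocount of 0.1, 37 (10 and 27) with a minimum of 5 TPM, 94 (20 and 74) with a replicate block, and 558 (99 and 459) with a replicate block within each day, the last chosen after seeing the data. Without 1 library the total was 30 to 235, with 3 to 56 higher and 26 to 179 lower. It was 56 and 179 without E14Tg2a day 8 replicate 1, 38 and 121 without ΔK9.2 day 8 replicate 2, and 14 and 123 without E14Tg2a day 0 replicate 1, and the cause was not tested. *Rbp4*, *Apom*, *Hnf4a* and *Tdh* were called in 19 of 19 alternatives, *Ttr* and *Hoxb1* in 18 (adjusted p up to 0.0755 and 0.0795), *Spink1* and *Apoa1* in 17 (0.0528 and 0.146), *Gbx2* in 15, *Tek* in 14, *Myl7* in 12, *Bmp5* in 10, *Nanog* in 8 (adjusted p up to 0.116), *Fgf17* in 7, *B3gnt7* in 5 and *Id1* in 3, and *Mesp2* in 10 of 18. Against ΔK9.1 the count of 0 became 2 (0 higher, 2 lower) with all 33 libraries or a pseudocount of 0.1, 3 (1 and 2) with the replicate block within each day, and 0 to 7 without 1 library (0 to 1 higher, 0 to 6 lower). With 3 libraries a group and no read counts, 73 of 100 genes with a simulated difference of 1.5 on the log2 scale to E14Tg2a were called, and 99 of 100 with a difference of 3. These rates, too, hold for the more abundant genes only.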

Other observations

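The 3 day 8 libraries of ΔK9.2 were each the highest for different gene groups. Among the 1770 genes called higher, 366 peaked in replicate 1, 738 in replicate 2 and 666 in replicate 3. Replicate 1 was the highest for 14 of 23 genes of the streak and early mesoderm and 13 of 15 of the integrated stress response. Replicate 2 was the highest for 30 of 34 *Hox* genes, 17 of 21 of blood and endothelium, 15 of 24 imprinted genes and 18 of 20 of cholesterol synthesis. Replicate 3 was the highest for 10 of 15 genes of the retinoic acid pathway, 12 of 14 of MHC class I and 18 of 30 of pluripotency. Over all 15056 genes tested, the same counts were 5218, 5048 and 4790.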
